A study of Homo sapiens with 3 samples.

Results

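The genes described here make cholesterol and fatty acids or regulate their synthesis. They are 32 genes, read by 36 probes whose symbol in the platform annotation was one of the 32, out of 16030 genes with a usable probe. By role they comprise 17 enzymes of sterol synthesis, 5 regulators, 2 sterol transport proteins and 8 genes of fatty acid synthesis and use. All 36 probes were brighter than the blank spots in Cy5 and in Cy3 on all 3 arrays, so that all 32 genes were tested.

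Expression was read on 3 2-colour TORAY 3D-Gene arrays, which carry DNA probes for human genes. DLD1 is a human colorectal adenocarcinoma line. Its TetOff clones carry pTetOff and FLAG-tagged mouse Cdx1 or Cdx2, wild type, which are expressed once doxycycline (DOX, kept at 0.5 µg/mL in medium with fetal bovine serum) is withdrawn. Each array set induced cells without DOX against non-induced cells with DOX of the same kind of clone, on 1 array per group. The groups were Cdx1 12 h, Cdx1 24 h and Cdx2 24 h after withdrawal. Cdx1 was induced faster than Cdx2, so equal hours do not mean equal Cdx protein. All cells of a transgene came from a TetOff clone, and no second clone and no dye-swapped array were analysed here. Absence of DOX, the Cy3 dye and the Cdx protein went together on every array and cannot be told apart.

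Ratios are given as log2 of Cy3 over Cy5 after loess normalisation within each array, where 1 is a 2-fold higher and -1 a 2-fold lower level. This is likely induced over non-induced cells, since titles, source names (which carry the dyes) and the legend of the array plot all place induced cells in Cy3. The cell line entries contradict this for both channels, and if they are right, every sign below turns, a fold lower becomes the same fold higher, and Cy5 rather than Cy3 holds the induced cells. Between 86.4% and 87.5% of 24460 gene probes per array exceeded the blank spots in both dyes. Of 7 genes with a probe among 8 markers of colon epithelium, all 7 were above the blanks, at 5.33 to 2760 times the Cy5 threshold. Hepatocytes, which make much sterol and fat, were represented by 4 markers, of which ALB did not exceed 1.01 times its Cy5 threshold and SERPINA1 was the brightest, at 7.54 times it on the Cdx2 array.

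Cells make cholesterol from acetyl-CoA, first through mevalonate and isoprenoid phosphates to farnesyl diphosphate, then through squalene and lanosterol to the sterol itself. Fatty acids are made from the same acetyl-CoA by carboxylation, repeated condensation, elongation and desaturation. The transcription factors SREBP-1 and SREBP-2 drive both branches. In sterol-replete cells, the INSIG proteins hold the SREBPs and their escort SCAP in the endoplasmic reticulum.

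Over the 3 arrays, 12 of the 32 genes fell and 3 rose, whereas 17 missed the threshold (limma, change shared by the arrays, adjusted p under 0.05 over all genes). Among all 16030 genes, 12.1% fell and 18.7% rose under the same test. Of the 17 sterol synthesis enzymes, 9 fell and none rose after loess, whereas on offset intensities centred without loess only SQLE fell and 5 rose. Of the 8 fatty acid genes 3 fell and 1 rose, and without loess 3 fell and 3 rose, not all the same genes. Over all members the split was 12 lower and 3 higher with loess and 6 lower and 12 higher without. Without loess 18% of all genes fell and 39.8% rose, shares close to those of the members but taken over genes of every brightness. Loess shifted the mean of FDFT1, a bright member, by -0.49 and that of SREBF1, a dim member, by 0.16. The median shift was -0.40 over the members and -0.14 over all genes, so the shares do not compare genes of like brightness. The regulators and transport proteins held the other 2 genes that rose, INSIG2 and STARD4. The median of the mean log2 ratios was -0.36 for sterol synthesis and -0.22 for the fatty acid genes after loess, beside 0.0058 for all genes, but without loess, on offset intensities centred on the median, the sterol median turned to 0.08 and the fatty acid median was -0.06. In the deposited value table, which also has no loess, these medians were -0.44 and -0.40. The difference between the branches was not tested. In bulk RNA such as this, fewer cells with a transcript and less of it per cell cannot be told apart. Because each group held 1 array, the test asks whether a ratio was alike in 3 different sets of cells, 2 of them with Cdx1.

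**Figure D1:**
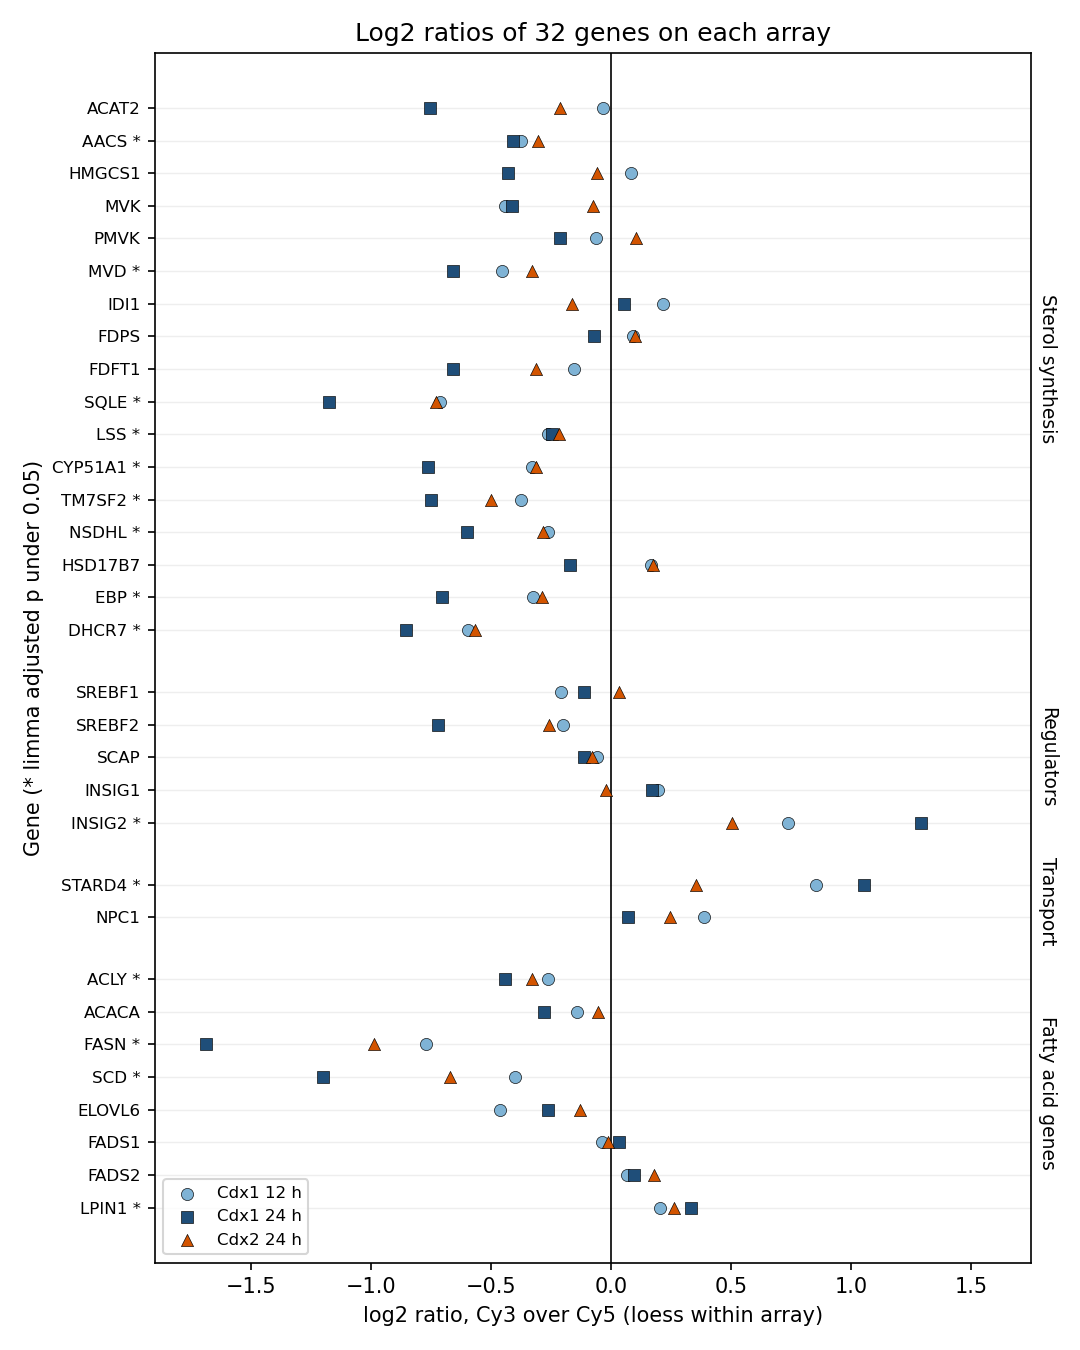
Log2 ratio of Cy3 over Cy5 (x axis, after loess) of each of the 32 genes (y axis, by role) on the arrays of Cdx1 at 12 h (circles), Cdx1 at 24 h (squares) and Cdx2 at 24 h (triangles), with a star at genes that passed the limma test. After loess FASN lies lowest, at -0.77, -1.69 and -0.99, and INSIG2 and STARD4 lie to the right of 0 on all arrays. On offset intensities without loess the sterol median turns from -0.36 to 0.08. In the deposited value table, which also has no loess, it was -0.44.

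Promoters were read for the members to show what the moving genes carry just before their starts. RefSeq starts of assembly GRCh38.p14 matched 28 of the 32 genes, with 39 windows of 250 bases. ACAT2, SQLE, FDFT1 and FASN were not matched. The 5 promoters below belong to DHCR7 and SCD, an enzyme of each branch that fell, to INSIG2 and STARD4, which rose most, and to SREBF2, the gene of SREBP-2. Each is written from 5′ to 3′ on the strand of its gene, with CCAAT, or its complement ATTGG, and matches to the sterol regulatory element TCACNCCAC in capitals.
DHCR7 chr11:71448394-71448643 (minus strand): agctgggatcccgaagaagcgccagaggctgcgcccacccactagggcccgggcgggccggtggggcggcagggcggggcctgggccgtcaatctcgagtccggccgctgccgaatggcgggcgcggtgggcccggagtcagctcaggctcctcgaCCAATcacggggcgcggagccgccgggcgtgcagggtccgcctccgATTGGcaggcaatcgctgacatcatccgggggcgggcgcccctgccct
SCD chr10:100346983-100347232 (plus strand): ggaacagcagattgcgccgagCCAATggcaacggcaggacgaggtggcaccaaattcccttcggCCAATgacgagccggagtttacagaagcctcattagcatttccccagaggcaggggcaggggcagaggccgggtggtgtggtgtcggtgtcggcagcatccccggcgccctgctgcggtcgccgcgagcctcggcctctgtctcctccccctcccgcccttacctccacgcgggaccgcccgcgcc
INSIG2 chr2:118088221-118088470 (plus strand): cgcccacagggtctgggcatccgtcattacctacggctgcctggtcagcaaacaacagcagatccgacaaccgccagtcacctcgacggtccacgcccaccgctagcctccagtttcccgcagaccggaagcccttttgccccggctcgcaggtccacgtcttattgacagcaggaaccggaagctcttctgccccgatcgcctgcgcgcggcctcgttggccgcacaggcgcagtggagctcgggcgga
STARD4 chr5:111512536-111512785 (minus strand): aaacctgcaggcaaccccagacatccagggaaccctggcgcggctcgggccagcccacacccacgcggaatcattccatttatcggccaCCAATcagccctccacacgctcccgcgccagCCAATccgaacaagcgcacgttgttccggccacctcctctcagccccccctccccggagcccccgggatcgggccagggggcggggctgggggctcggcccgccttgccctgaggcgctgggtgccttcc
SREBF2 chr22:41832855-41833104 (plus strand): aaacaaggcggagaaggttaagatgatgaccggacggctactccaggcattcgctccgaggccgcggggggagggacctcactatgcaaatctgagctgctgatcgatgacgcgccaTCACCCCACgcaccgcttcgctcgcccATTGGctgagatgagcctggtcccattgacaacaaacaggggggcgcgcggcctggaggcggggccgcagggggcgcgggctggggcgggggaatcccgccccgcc
These windows end at the base before the listed start, and DHCR7 and INSIG2 have 2 listed starts each, of which 1 is shown.

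The sterol regulatory element TCACNCCAC, a binding sequence of SREBPs in which N is any base, was searched on both strands. It stood in 1 of the 39 windows, that of SREBF2, with its first base 133 bases before the start, beside 0.883% of all 35116 windows. CCAAT, the box bound by NF-Y, was present on either strand in 17 of 28 genes (20 of 39 windows), against 32% of all windows. Both DHCR7 and SCD held 2 copies, at -94 and -48 and at -229 and -186 (first base, with -1 just before the start), STARD4 held 2 at -161 and -130, and INSIG2 held none. GGGCGG, the GC box bound by Sp1, was found in 27 of 28 genes (34 of 39 windows), against 42.6% of all windows. TTTAT, the core letters of sites bound by CDX proteins, occurred in 7 of 28 genes (7 of 39 windows), against 32.7% of all windows. The 7 genes were HMGCS1, INSIG1, MVK, NSDHL, SREBF1, STARD4 and TM7SF2, of which STARD4 rose, TM7SF2 and NSDHL fell and the other 4 did not pass the test. A match or its absence describes these letters in this window alone, and matches that overlapped were counted under each motif.

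The steps from acetyl-CoA to farnesyl diphosphate were read by 8 enzymes, of which 2 fell and 6 did not pass the test after loess, whereas without it none fell, 4 rose (HMGCS1, PMVK, IDI1 and FDPS) and the median turned from -0.22 to 0.26. AACS, which makes acetoacetyl-CoA for synthesis in the cytosol, had log2 ratios of -0.37 on the Cdx1 12 h array, -0.41 on the Cdx1 24 h array and -0.30 on the Cdx2 array (mean -0.36 ± 0.04, SE, limma adjusted p = 0.00946). The values on the 3 arrays thus lay close together, at 1.30-fold, 1.33-fold and 1.23-fold lower in Cy3 than in Cy5. MVD, the decarboxylase that yields isopentenyl diphosphate, had -0.45, -0.66 and -0.33 (mean -0.48 ± 0.07, SE, limma adjusted p = 0.0163). Its probes read alike, one with -0.45, -0.65 and -0.34 and the other with -0.45, -0.67 and -0.32, so that 2 separate readings placed the Cdx1 24 h array lowest.

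The other 6 enzymes of these early steps were less uniform. ACAT2, the cytosolic acetoacetyl-CoA thiolase, had -0.04, -0.75 and -0.21 (limma adjusted p = 0.176), and HMGCS1, the synthase that forms HMG-CoA, had 0.08, -0.43 and -0.06 (limma adjusted p = 0.414). Both were clearly negative on the Cdx1 24 h array alone. MVK, mevalonate kinase, showed another order, with -0.44 and -0.41 on the Cdx1 arrays and -0.07 on the Cdx2 array (limma adjusted p = 0.0636). Without the Cdx2 array, MVK passed the test (mean -0.43, limma adjusted p = 0.0229). PMVK, the kinase of the next step, IDI1, the isopentenyl diphosphate isomerase, and FDPS, farnesyl diphosphate synthase, had mean log2 ratios of -0.06, 0.04 and 0.04, and without loess of 0.34, 0.55 and 0.54, where all 3 passed the test as higher. Their single values ran from -0.21, for PMVK with Cdx1 at 24 h, to 0.22, for IDI1 with Cdx1 at 12 h.

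The steps from squalene to cholesterol were read by 9 enzymes, of which 7 fell after loess, although their median of -0.44 turned to 0.04 without it. After loess 8 of the 9 had negative ratios on all 3 arrays, as did 30.4% of all genes. SQLE, squalene epoxidase, a rate-limiting enzyme of the late pathway, had -0.71, -1.18 and -0.73 (mean -0.87 ± 0.11, SE, limma adjusted p = 0.0114). It was 1.64-fold, 2.26-fold and 1.66-fold lower in Cy3 in the order Cdx1 12 h, Cdx1 24 h and Cdx2, and its Cdx1 12 h and Cdx2 values nearly coincided. DHCR7, the reductase of the last step, had -0.60, -0.86 and -0.57 (mean -0.67 ± 0.07, SE, limma adjusted p = 0.00875). The Cdx1 24 h array was again the lowest for TM7SF2, a sterol reductase acting after lanosterol demethylation, with -0.38, -0.75 and -0.50 (mean -0.54 ± 0.08, SE, limma adjusted p = 0.016), and its Cdx2 value lay below its Cdx1 12 h value.

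CYP51A1, lanosterol demethylase, had -0.33, -0.76 and -0.31 (mean -0.47 ± 0.11, SE, limma adjusted p = 0.0376). EBP, a sterol isomerase, had -0.33, -0.71 and -0.29 (mean -0.44 ± 0.10, SE, limma adjusted p = 0.0356), and NSDHL, a sterol dehydrogenase that removes methyl groups, had -0.27, -0.60 and -0.29 (mean -0.38 ± 0.08, SE, limma adjusted p = 0.0323). In all 3 genes the Cdx1 24 h value lay farthest from 0 while the other values nearly coincided, and in all 3 the mean lay above 0 without loess, at 0.04, 0.08 and 0.08, with no call. LSS, lanosterol synthase, had -0.26, -0.25 and -0.22 (mean -0.24 ± 0.04, SE, limma adjusted p = 0.0146), the narrowest range of the sterol enzymes that fell. FDFT1, squalene synthase, had -0.16, -0.66 and -0.32 and missed the threshold (limma adjusted p = 0.0647). HSD17B7, a ketosteroid reductase of the late pathway, was the exception to the shared sign, with 0.17, -0.17 and 0.17.

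Of the 5 regulators, 1 rose and none fell after loess with the offset of 50. Without loess 2 rose (INSIG1 and INSIG2) and 2 fell (SREBF1 and SCAP). SREBF2 had -0.20, -0.72 and -0.26 and did not pass the test (limma adjusted p = 0.0726). With an offset of 0 it was called lower (mean -0.515, limma adjusted p = 0.0341). The same held in the deposited value table (mean -0.48, limma adjusted p = 0.0495). As for most sterol enzymes, its value was lowest on the Cdx1 24 h array. SREBF1, the gene of SREBP-1, and SCAP were close to background, at 1.06 to 1.26 times and 1.11 to 1.23 times the Cy3 threshold, and had mean log2 ratios of -0.10 and -0.08. At this brightness the offset of 50 shrinks any ratio. With an offset of 0 SCAP was called lower (mean -0.355, limma adjusted p = 0.0391), whereas SREBF1 was not called (mean -0.446, limma adjusted p = 0.133).

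INSIG2, an endoplasmic reticulum anchor of SCAP, rose, with log2 ratios of 0.74, 1.29 and 0.51 (mean 0.84 ± 0.16, SE, limma adjusted p = 0.0263). It was 1.67-fold, 2.45-fold and 1.42-fold higher in Cy3 in the same order, farthest from 0 at 24 h of Cdx1. INSIG1, its paralog and in many cells a target of SREBPs, had 2 probes that disagreed. The bright probe gave 0.42, 0.39 and 0.00, and the other, near background, gave -0.03, -0.04 and -0.05. Their mean of 0.11 did not pass the test (limma adjusted p = 0.212), so that the INSIG1 level rests on which probe is read.

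STARD4, a cytosolic carrier of cholesterol, rose with 0.85, 1.05 and 0.35 (mean 0.75 ± 0.15, SE, limma adjusted p = 0.0265). It was 1.81-fold, 2.07-fold and 1.28-fold higher in Cy3, so that the Cdx2 array was closest to 0. NPC1, which passes cholesterol out of lysosomes, had 0.39, 0.07 and 0.24 and did not pass the test (limma adjusted p = 0.0748), but did without loess (mean 0.54, limma adjusted p = 0.00264). Its value at 24 h of Cdx1 was the lowest of the 3, unlike that of STARD4.

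Of the 8 fatty acid genes, FASN, the synthase that builds palmitate, had the lowest ratios of all 32 genes after loess with the offset. Its log2 ratios were -0.77 for Cdx1 12 h, -1.69 for Cdx1 24 h and -0.99 for Cdx2 (mean -1.15 ± 0.19, SE, limma adjusted p = 0.0189). FASN was thus 1.71-fold, 3.22-fold and 1.98-fold lower in Cy3, and it stayed negative without loess, at -0.29, -1.14 and -0.44. SCD, the desaturase that makes oleate, had -0.40, -1.20 and -0.67 (mean -0.76 ± 0.17, SE, limma adjusted p = 0.0344), again with the Cdx1 24 h array lowest and the Cdx2 array between. ACLY, which cuts citrate into acetyl-CoA for both branches, had -0.27, -0.44 and -0.33 (mean -0.35 ± 0.05, SE, limma adjusted p = 0.014), but without loess it turned to a mean of 0.16 (limma adjusted p = 0.0452).

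LPIN1, a phosphatidate phosphatase that serves triglyceride synthesis, rose, with 0.20, 0.33 and 0.26 (mean 0.27 ± 0.04, SE, limma adjusted p = 0.0174). The probe was dim, with Cy3 of 114, 149 and 101 against thresholds of 62, 68.1 and 55.3. Its mean was 0.60 with an offset of 0 and 0.64 in the deposited value table, and its call was lost with each array left out (limma adjusted p = 0.0551 to 0.0645). The other 4 fatty acid genes did not pass the test. ELOVL6, which elongates palmitate, had -0.46, -0.26 and -0.13 (limma adjusted p = 0.053), so that its Cdx1 12 h value was the lowest. ACACA, the acetyl-CoA carboxylase of the cytosol, had 2 probes, with -0.15, -0.45 and -0.07 for the brighter and -0.14, -0.11 and -0.04 for one at 1.01 to 1.07 times the Cy3 threshold. Their mean of -0.16 did not pass the test (limma adjusted p = 0.108), and it did with an offset of 0 (mean -0.47, limma adjusted p = 0.0262). The desaturases FADS1 and FADS2 had means of -0.01 and 0.11, FADS1 near background and FADS2 from probes that read alike.

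Taken array by array after loess with the offset, with no test, the Cdx1 24 h array held most of the large decreases. At least 1.5-fold lower were 3 members with Cdx1 at 12 h (SQLE, DHCR7 and FASN, beside 2.34% of all genes), 12 with Cdx1 at 24 h (4.07%) and 3 with Cdx2 (SQLE, FASN and SCD, 1.73%). The 12 were ACAT2, MVD, FDFT1, SQLE, CYP51A1, TM7SF2, NSDHL, EBP, DHCR7, SREBF2, FASN and SCD. Higher by that much were INSIG2 and STARD4 on both Cdx1 arrays (5.94% of all genes at 12 h and 8.67% at 24 h) and no member on the Cdx2 array (4.6%). In the deposited value table, INSIG2 (0.63) and LPIN1 (0.78) passed that fold on the Cdx2 array. With Cdx1 at 24 h, 3 members were at least 2-fold lower, SQLE, FASN and SCD (0.892% of all genes), and 2 at least 2-fold higher, INSIG2 and STARD4 (2.29%). No member was that far from 0 with Cdx1 at 12 h (0.374% of all genes lower and 1.09% higher) or with Cdx2 (0.25% and 0.93%). This held after loess with the offset and not in the deposited value table. There SCD (-1.21) and FASN (-1.03) were at least 2-fold lower with Cdx2, and STARD4 (1.01) was at least 2-fold higher with Cdx1 at 12 h. SREBF1 (-1.26) and the dimmer probe of ACACA (-1.26), both near background, were also that much lower with Cdx1 at 12 h. Without loess, 0, 3 and 0 members were at least 1.5-fold lower on the 3 arrays, beside 0.493%, 0.992% and 0.2% of all genes, and 4, 3 and 3 higher, beside 16%, 21.0% and 17.4%.

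Between the Cdx1 arrays, the ratio was lower at 24 h than at 12 h for 23 of the 32 genes and for 15 of the 17 sterol enzymes, beside 47.4% of all genes. The median difference was -0.33 for sterol synthesis and -0.05 for the fatty acid genes. At least 1.5-fold lower were 3 members, FASN (-0.91), SCD (-0.80) and ACAT2 (-0.72), beside 1.06% of all genes, and no member was that much higher, beside 0.774%. There was 1 array per time, so these differences have no replicate check.

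A ratio can shift through either channel, and the channels, scaled across arrays, showed that the members differed in this. For FASN, log2 brightness in Cy5 (likely non-induced cells) was 11.53 at 12 h and 11.55 at 24 h, whereas in Cy3 (likely induced cells) it was 10.76 and 9.86. The difference between times thus lay in Cy3. SCD was similar, with 0.20 higher Cy5 and 0.60 lower Cy3 at 24 h. For ACAT2, Cy5 was 0.63 higher at 24 h and Cy3 changed by -0.09, so that the difference in ratio lay in Cy5. HMGCS1 and SREBF2 were also brighter in Cy5 at 24 h, by 0.78 and 0.59, against 0.27 and 0.07 in Cy3. These 3 genes were at least 1.5-fold brighter in Cy5 at 24 h than at 12 h of Cdx1, beside 1.07% of all genes, and no member was that much dimmer, beside 0.561%. IDI1, 0.51 brighter, lay just below that fold. INSIG2 and STARD4 were 0.53 and 0.58 brighter in Cy3 at 24 h, with differences of -0.03 and 0.38 in Cy5. If the cell line entries are right, what is said of Cy3 holds for the non-induced cells and what is said of Cy5 for the induced ones.

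**Figure D2:**
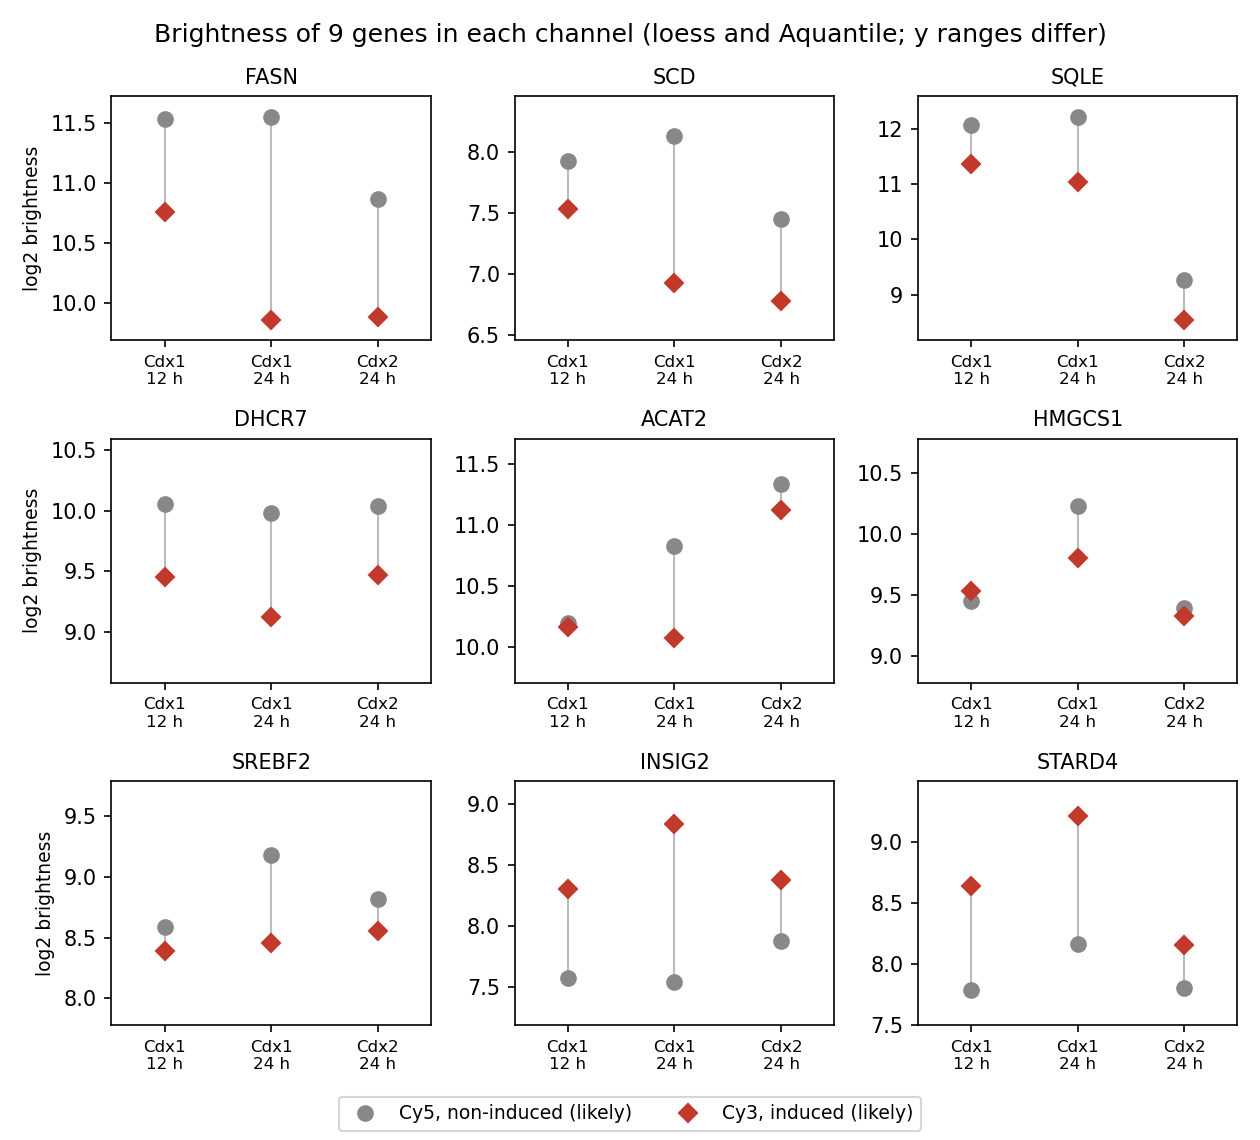
Brightness (y axis, log2 after loess and scaling across arrays, with ranges that differ between panels) of 9 genes in Cy5 (grey circles, likely non-induced cells) and Cy3 (red diamonds, likely induced cells) on each array (x axis), 1 array each. FASN was dimmer in Cy3 at 24 h of Cdx1 (9.86) than at 12 h (10.76), with Cy5 of 11.55 and 11.53, ACAT2, HMGCS1 and SREBF2 were brighter in Cy5 at 24 h, and SQLE was dimmer in both channels of the Cdx2 array.

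Set against the mean of both Cdx1 arrays, the Cdx2 array showed no gene past the adjusted threshold of limma among all 16030 (0.0%), with 844 (5.27%) at an unadjusted p under 0.05 and 1 residual degree of freedom. Among the members 0 passed, and 2 had an unadjusted p under 0.05, STARD4 (difference of -0.60, lower with Cdx2) and MVK (difference of 0.35, higher with Cdx2). At 24 h the ratio was higher with Cdx2 than with Cdx1 for 26 of the 32 genes and for 16 of the 17 sterol enzymes, with a median difference of 0.24 over the members, beside 7894 of the 16030 genes. INSIG2 and STARD4 differed the other way, by -0.79 and -0.70. Since this fit takes its spread from the Cdx1 arrays at 12 and 24 h, a p that misses the threshold does not show that the proteins acted alike.

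The Cdx2 array differed from the Cdx1 arrays in Cy5, the channel of the cells that were likely not induced. Since the Cdx2 clone was read on 1 array, clone and array cannot be told apart. SQLE had raw Cy5 of 3490 and 3278 in the Cdx1 cells and 365 in the Cdx2 cells, a difference of -2.87 on the scaled log2 scale (7.32-fold dimmer). SQLE lies on chromosome 8, as does FDFT1, which differed by -0.20. Their positions along the chromosome were not compared, so FDFT1 is no check on the region of SQLE. For SQLE, Cy3 of the Cdx2 array was dim as well (raw 459, against 3922 and 2963 with Cdx1). The difference was thus seen in both channels of the same spot, and the ratio of -0.73 was read at a lower brightness than those of Cdx1. FASN, HSD17B7 and SCD differed by -0.67, -0.66 and -0.58, dimmer in the Cdx2 cells, and ACAT2 was brighter there by 0.82. SQLE, FASN and HSD17B7, or 3 members, were thus at least 1.5-fold dimmer, beside 1.86% of all genes, and 1 brighter, beside 1.71%. This set 2 cultures of the Cdx1 clone against 1 of the Cdx2 clone, with no test.

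On offset intensities, the sign of many members depended on whether loess or only median centring was applied. Values given without loess come from these offset intensities unless the deposited value table is named. The median shift from no loess to loess was -0.40 for the members and -0.48 for the sterol enzymes, against -0.14 for all genes. Of the 12 members that fell, 8 kept a mean below 0 without loess and 4 turned above it, CYP51A1, NSDHL, EBP and ACLY. SQLE, FASN and SCD were still called lower there, with means of -0.39, -0.62 and -0.52, and INSIG2 and STARD4 higher, with 1.20 and 1.13. The deposited value table, which also has no loess but starts from intensities with the blank mean subtracted, kept the direction and call of all 15 called members. In that table FASN had -0.76, -1.81 and -1.03, SCD -0.59, -1.79 and -1.21, and SQLE -0.71, -1.31 and -0.84, with sterol and fatty acid medians of -0.44 and -0.40.

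**Figure D3:**
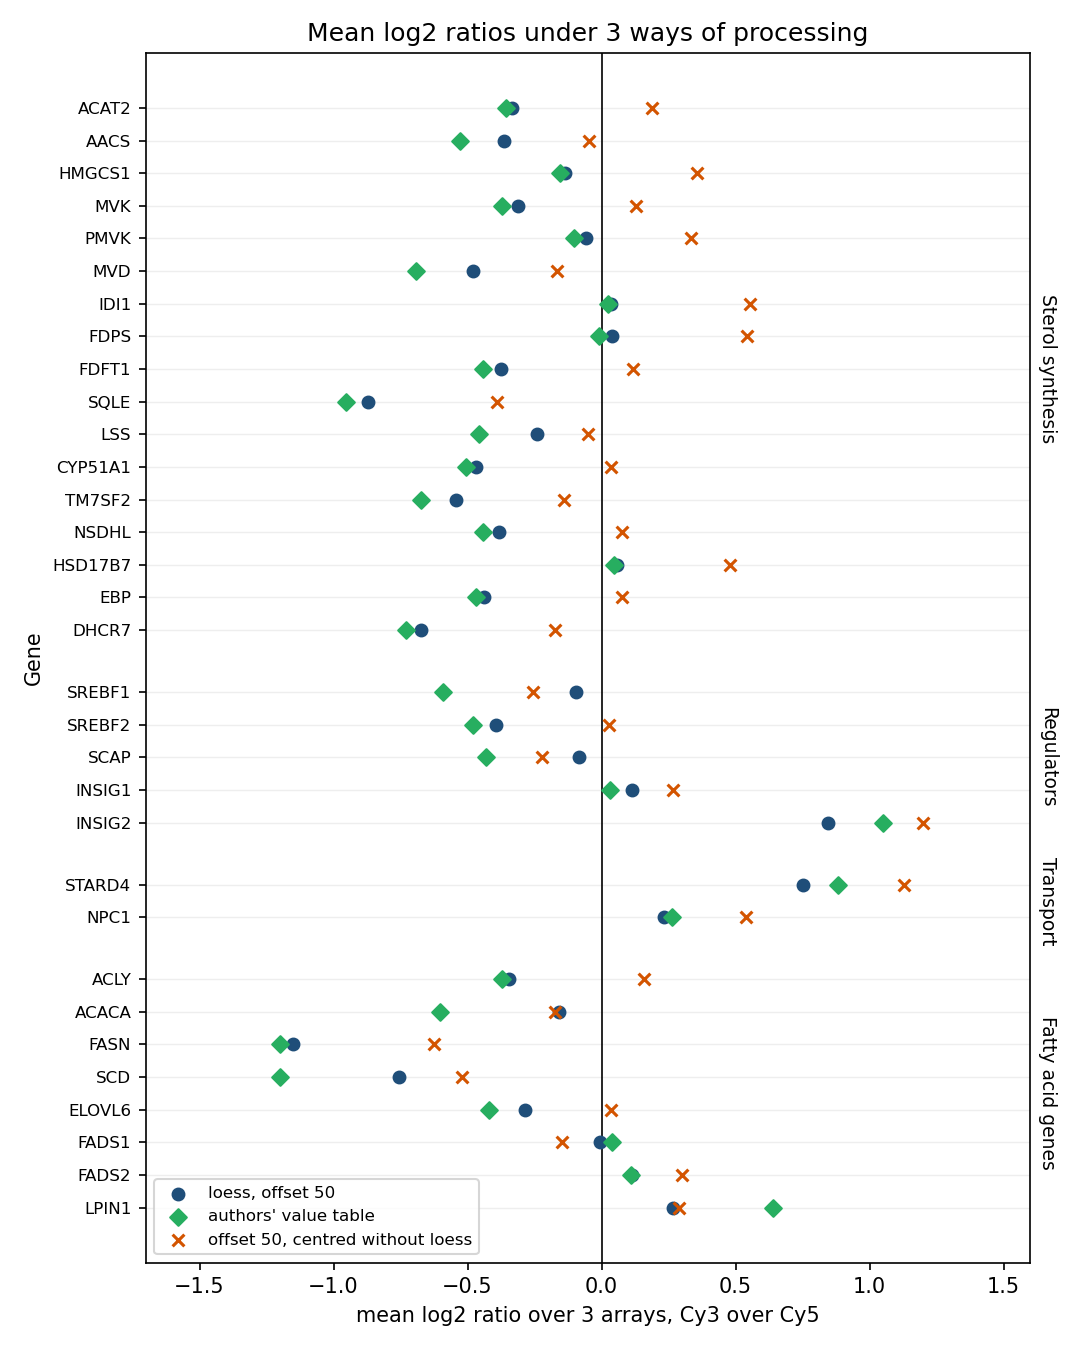
Mean log2 ratio of Cy3 over Cy5 over the 3 arrays (x axis) for each gene (y axis, by role) under 3 ways of processing: loess with an offset of 50 (circles), the deposited value table (diamonds), and the offset of 50 with median centring and no loess (crosses). Crosses lie to the right of the circles for most genes, and for CYP51A1, NSDHL, EBP and ACLY they cross 0, while the diamonds of all 15 called genes stay on the side of their circles.

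Of the calls, 5 of 15 held with each array left out in turn, AACS, SQLE, TM7SF2, DHCR7 and ACLY. FASN missed the threshold without the Cdx2 array (limma adjusted p = 0.0501), and INSIG2 without the Cdx1 12 h array (limma adjusted p = 0.0894). STARD4 missed it without either Cdx1 array (limma adjusted p = 0.11 without 12 h and 0.0702 without 24 h). Members that fell numbered 6, 11 and 7, and members that rose 0, 1 and 2, without Cdx1 at 12 h, Cdx1 at 24 h and Cdx2. Of all genes, 4.4%, 5.88% and 7.5% fell and 8.62%, 11.3% and 14.0% rose in these fits. All 15 kept their sign each time. With the background column of the scanner files used as local background, TM7SF2 alone remained called, when 251 genes (1.57%) rose and 268 (1.67%) fell in all.

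Other genes of lipid metabolism, outside the 32, were read from 6 lists. Their counts stand beside 18.7% of all genes that rose and 12.1% that fell. Of 7 other sterol synthesis genes tested, 3 rose and 1 fell. MSMO1 (-0.34, and 0.18 without loess), a sterol methyl oxidase, fell, and ACAT1 (0.41), the mitochondrial thiolase, was highest. Of 7 genes for SREBP processing and degradation, 1 rose, MBTPS1 (0.44), the protease that makes the first cut of SREBPs, and 3 fell, with TMEM97 (-0.50, and 0.01 without loess), a regulator of NPC1, lowest. Of 15 genes of storage and export, 5 rose and 1 fell, SCARB1 (-0.55, and -0.03 without loess), the HDL receptor, with LCAT (2.01), which esterifies cholesterol in plasma, highest. LCAT had 3.10, 2.09 and 0.84 on the 3 arrays.

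Fatty acid genes outside the 32 moved both ways, beside 18.7% of all genes that rose and 12.1% that fell. Of 24 other genes of synthesis and activation, 6 rose and 5 fell, from ELOVL1 (-0.59, and -0.07 without loess) to ELOVL3 (1.44), both elongases. Of 12 genes of glycerolipid synthesis, 1 rose, CDS2 (0.37), and 2 fell, with DGAT1 (-0.45, and -0.02 without loess), which makes triglycerides, lowest. Of 18 genes of fatty acid oxidation, 6 rose and 1 fell, ECHS1 (-0.38, and 0.12 without loess), with ACADM (0.70), the medium-chain dehydrogenase, highest. The list medians were 0.05 for other sterol synthesis, -0.09 for SREBP processing, 0.14 for storage and export, 0.04 for other fatty acid synthesis, -0.03 for glycerolipids and 0.11 for oxidation, and without loess every one of them lay above 0.

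**Figure D4:**
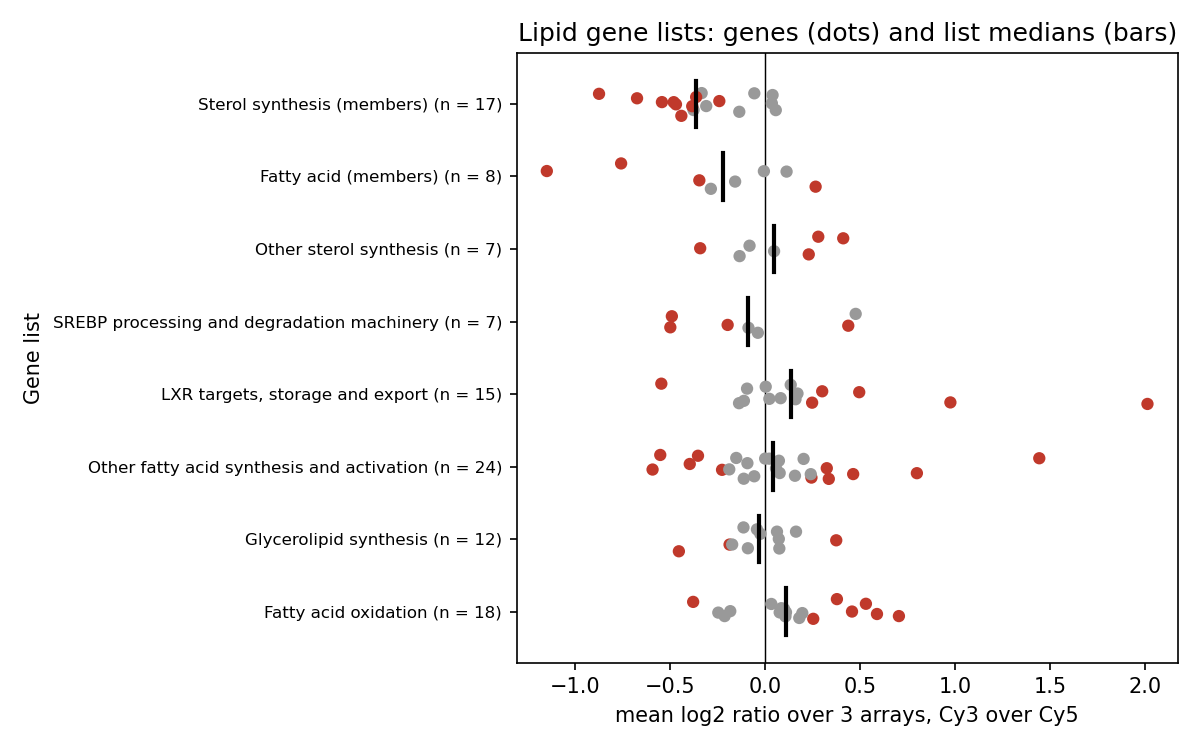
Mean log2 ratio of Cy3 over Cy5 over the 3 arrays after loess (x axis) for each gene (dots, red where it passed the limma test) of the sterol and fatty acid members and of 6 other lipid gene lists (y axis), with list medians as bars. The bars of the members lie at -0.36 and -0.22 after loess, and those of the other lists between -0.09 and 0.14. On offset intensities without loess the sterol bar moves to 0.08 and the fatty acid bar to -0.06. In the deposited value table these medians were -0.44 and -0.40.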

How the data were processed

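Total RNA was made into amino allyl aRNA, to which Cy5 or Cy3 was coupled. The deposited scanner files of the authors give the intensity of each spot at both wavelengths with no background subtracted. The deposited value table of the authors holds log2 values, found by comparison with the scanner values (within 0.001) to be Cy3 over Cy5 after subtraction of the trimmed blank mean, centred on each array without loess. Scanner and software: not given in the sources used here.

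Normexp without local background (offset 50) and loess within arrays (span 0.3, weight 0 for control spots) were run in limma 3.58.1 with R 4.3.3. Above background meant over the mean of 2680 blank spots, trimmed by 5% at each end, plus 2 SD. Unflagged probes that passed this in 1 or both channels on each array were averaged by gene. Platform symbols were checked against RefSeq names: 4224 probes had no symbol, 17238 a current one, 2899 one that was updated and 98 an ambiguous one.

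Change shared by the arrays was tested by the limma intercept (two-sided, Benjamini-Hochberg over 16030 genes), and Cdx2 by a contrast with the mean of the Cdx1 arrays. P-values measure only the spread between 3 sets of cells, and precision is limited by the number of arrays. Channel brightness was scaled across arrays by Aquantile. The fit was also run on simulated ratios with independent errors and few changed genes, which cannot check the calls in these data. The members and lists were chosen with earlier results of these data known, all members were named, and of each other list the called genes with the highest and lowest mean. Promoters came from RefSeq, GRCh38.p14. Alternatives were other offsets, no loess, the file's background column, the value table, other filters, the brightest probe, other variance models, a 2-fold threshold and each array left out. Loess after subtraction of the blank mean was chosen after seeing the data.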

Additional observations from a re-analysis of the deposited data

Results flagged for a closer look

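Ratios of opposite sign between sets of cells were seen in 8 members, none of which passed the test over the 3 arrays. With 1 array per set, the differences between times were not tested, and those between Cdx2 and Cdx1 rest on 1 residual degree of freedom. HMGCS1 had -0.43 with Cdx1 at 24 h and 0.08 at 12 h. FDPS had -0.0704 at 24 h and 0.09 at 12 h, and HSD17B7 had -0.17 and 0.17. FADS1, near background, had 0.0328 at 24 h and -0.04 at 12 h. PMVK had 0.10 with Cdx2 and -0.06 and -0.21 with Cdx1 (limma adjusted p = 0.963 for the difference). IDI1 had -0.16 with Cdx2 and 0.22 and 0.05 with Cdx1 (limma adjusted p = 0.949). INSIG1, over both its probes, had -0.0219 with Cdx2 and 0.20 and 0.17 with Cdx1 (limma adjusted p = 0.961). SREBF1, near background, had 0.0342 with Cdx2 and -0.21 and -0.11 with Cdx1 (limma adjusted p = 0.997).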

How the results depend on the processing

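The counts of members were 12 lower and 3 higher. With median centring and no loess they were 6 and 12, with the file's background column 1 and 0, and with an offset of 200 7 and 1. The lower count was 16 in the value table, 17 with an offset of 0 or with the blank mean subtracted before loess, and 18 with an intensity trend in the variance. With each array left out in turn they ranged from 6 to 11 lower and from 0 to 2 higher, the sterol median from -0.44 to -0.26 and the fatty acid median from -0.28 to -0.18. The sterol median of -0.36 turned to 0.0775 without loess on offset intensities. It was -0.16 with the background column and -0.44 in the value table, which also has no loess. The fatty acid median of -0.22 was -0.0567 without loess, -0.43 with an offset of 0, -0.12 with an offset of 200, -0.40 in the value table and -0.44 with the blank mean subtracted before loess. Without loess the sign turned, and the value was called in at least 1 of the 2 fits, for HMGCS1 (0.36), PMVK (0.34), CYP51A1 (0.0366), NSDHL (0.0771), EBP (0.0775) and ACLY (0.16). The cause was not tested. Over all genes, no loess gave 6372 higher and 2893 lower against 2997 and 1938, with the median of all genes at 0.089. The background column gave 251 and 268, and an offset of 200 gave 1907 and 1233. The share of all genes that fell was 14.5% in the value table and 15.2% with an offset of 0. It was 15.9% with the blank mean subtracted before loess and 13.5% with the intensity trend, against 12.1% in the main fit. The 15 calls were all kept with an offset of 0, in the value table, under the 2 other filters, with the brightest probe and under the 2 other variance models. No member passed the test of Cdx2 against Cdx1 under the alternatives that kept all 3 arrays. Each ratio already paired induced with non-induced cells on the same array. Arrays could not be paired between groups, because each group held 1 array and all carry the number 1. Arrays of 1 sample a group give no spread within a group, and SREBF1, SCAP, FADS1 and 1 probe each of INSIG1 and ACACA lay within 1.27 times the Cy3 threshold, where the offset limits any ratio.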
